A study of Mus musculus with 10 samples.

Results

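The IFIT proteins and the ISG15 conjugation system were followed here through 9 genes, chosen by name: the 4 IFIT genes Ifit1, Ifit2, Ifit3 and Ifit3b, and 5 genes of ISG15 attachment and removal, Isg15, Uba7, Ube2l6, Herc6 and Usp18. All 9 had an identifier among the 56748 in the count tables, and all 9 passed the filter on low counts that left 15942 genes to test. The libraries were made from RNA of beta cells sorted by flow cytometry. The islets came from NOD males, 6 to 8 weeks old, of a strain in which autoimmunity destroys beta cells. In the LPS group (n = 5, libraries 6 to 10) the islets had been in culture for 48 hours with lipopolysaccharide, a component of the outer membrane of Gram-negative bacteria, at 50 ng/ml, and in the untreated group (n = 5, libraries 1 to 5) they had received none. Both groups share strain, sex and sort. LPS met whole islets before the sort, so that other islet cells were present during the exposure, and the labels do not name the animals behind each library. The submitters call the samples of a group independent without saying how, so the p-values measure the spread between these libraries, which may be technical.

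IFIT proteins are interferon-induced, carry tetratricopeptide repeats and bind RNA. IFIT1 recognises viral RNA whose cap lacks the 2'-O-methyl mark of the cell's own mRNA, and in human cells IFIT2 and IFIT3 form complexes with it. ISG15 is a small protein built from a pair of ubiquitin-like domains that is joined to other proteins in a relay like that of ubiquitin. UBA7 (the E1) activates it, UBE2L6 (the E2) carries it, HERC6 is the main mouse ligase (the E3) and USP18 takes it off again. USP18 also binds a chain of the type I interferon receptor and damps its signal, apart from its protease activity. The transcription of such genes by type I interferon runs through ISGF3, a complex containing STAT2 and IRF9 that binds the interferon-stimulated response element (ISRE).

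Of the 9 genes, 8 rose with LPS and none fell (edgeR's quasi-likelihood test, adjusted p under 0.05). Across all genes tested, 3.77% were called, 2.84% higher and 0.928% lower in LPS. The fold change ran from 3.94 for Isg15 to 1.41 for Uba7 among the 8, and the gene not called was Ifit2. The median log2 fold change of the 9 genes was 0.91, beside -0.0091 over all genes tested. In 6 of the 9 genes every LPS library lay above every untreated library, a pattern found in 3.84% of all genes tested. The reverse pattern, found in 1.87% of all genes tested, occurred in 0 of the 9. The promoter stretches below are shown because they hold, or lack, the ISRE core of these genes.

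The RefSeq promoter table (build GRCm38.p6) held 8 of the 9 genes, and the 250 bases before each annotated start site were searched on both strands for the ISRE core, written here as GAAA, any 2 bases and GAAA. Ifit1, Ifit3 and Ifit3b held 2 matches each and Isg15 held 3 that overlap one another. None was found in the windows of Ifit2 (which has 2 start sites in the table), Uba7, Ube2l6 or Herc6. Among all 32851 promoter windows of that length, 2.98% held the core. The STAT-type element TTCNNNGAA, found in 7.02% of windows, was present once, 241 to 233 bases before the first start site of Ifit2. A match is a run of letters and not a measured binding site. Only exact matches were sought, so a window without one may hold a near match and says nothing of more distant sequence. Capitals mark the core, which reads TTTC, any 2 bases and TTTC where it lies on the other strand, and each sequence runs 5′ to 3′ on the strand of its gene.
Isg15, chr4:156200855-156200916, minus strand, 98 to 37 bases before the start: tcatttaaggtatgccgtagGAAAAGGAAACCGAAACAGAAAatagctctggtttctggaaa
Ifit1, chr19:34640765-34640833, plus strand, 124 to 56 bases before the start: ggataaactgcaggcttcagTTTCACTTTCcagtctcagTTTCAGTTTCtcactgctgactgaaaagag
Ifit3, chr19:34583353-34583436, plus strand, 176 to 93 bases before the start: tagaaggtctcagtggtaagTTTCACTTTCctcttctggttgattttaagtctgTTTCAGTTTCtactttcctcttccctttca
Ifit3b, chr19:34607749-34607832, plus strand, 208 to 125 bases before the start: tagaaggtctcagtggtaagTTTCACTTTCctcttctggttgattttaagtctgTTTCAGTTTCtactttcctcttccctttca
Ifit2, chr19:34550594-34550693, plus strand, the last 100 bases before the first start site: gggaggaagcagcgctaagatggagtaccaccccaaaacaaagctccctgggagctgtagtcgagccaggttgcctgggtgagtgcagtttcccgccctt

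The 84 bases shown for Ifit3 and Ifit3b are the same at all 84 positions. In Isg15 the 3 cores form 1 run, while in the 3 Ifit genes with a match a gap separates the cores. The stretch of Ifit2, the gene that was not called, has no core. The windows of Uba7, Ube2l6 and Herc6, which were called, held no exact match either. That of Uba7 holds tttcactttt, which differs from the core in its last base, and near matches were not searched for in any window.

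**Figure D1:**
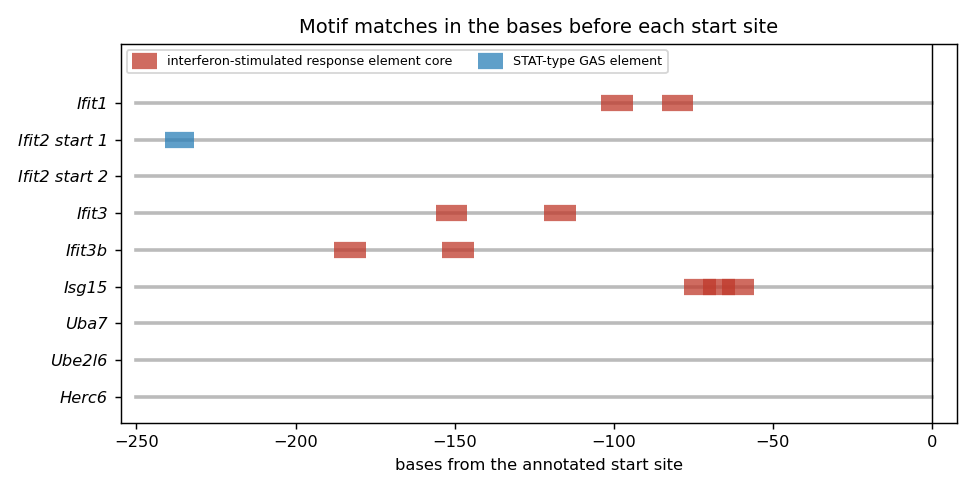
Matches of the ISRE core (red) and of the STAT-type GAS element (blue) in the 250 bases before each annotated start site, in bases from the start. Ifit1, Ifit3, Ifit3b and Isg15 hold ISRE cores. The 2 start sites of Ifit2 have a row each, and Usp18 is not plotted.

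The 4 genes with a core had log2 fold changes of 1.98 (Isg15), 1.41 (Ifit3), 0.94 (Ifit1) and 0.91 (Ifit3b). Those without one in the window had 1.03 (Ube2l6), 0.63 (Ifit2), 0.59 (Herc6) and 0.50 (Uba7). These ranges overlap, since Ube2l6 exceeded both Ifit1 and Ifit3b.

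Among the IFIT genes, Ifit1 had the highest level per exon length, with no correction for sequence shared between genes, and rose 1.92-fold. Ifit1 stood at 24.5, 26.6, 23.2, 28.8 and 24.9 CPM (the count scaled to library size after TMM normalisation) in LPS libraries 6 to 10, against 16.3, 12.3, 11.3, 13.3 and 13.4 CPM in untreated libraries 1 to 5. The lowest LPS library lay well above the highest untreated library. Its log2 fold change was 0.94 ± 0.10 (SE, edgeR adjusted p = 1.25e-04), and it ranked 49 of 15942 genes by p.

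Ifit3, whose human counterpart stabilises IFIT1 on its RNA, had the largest fold change of the IFIT genes. It stood at 7.75, 11.5, 7.78, 11.9 and 9.44 CPM in LPS libraries 6 to 10, against 3.77, 2.02, 3.38, 4.99 and 4.06 CPM in untreated libraries 1 to 5. The groups did not overlap, although the values spread widely within each. The fold change was 2.65 (log2 1.41 ± 0.21 SE, edgeR adjusted p = 0.00144).

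Ifit3b, a mouse copy of Ifit3, was also higher with LPS. It stood at 4.19, 4.48, 3.51, 3.65 and 4.14 CPM in LPS libraries 6 to 10, against 2.37, 2.23, 1.86, 1.93 and 2.26 CPM in untreated libraries 1 to 5. The LPS values were again all higher, and on the log2 scale the fold change was 0.91 ± 0.15 (SE, edgeR adjusted p = 0.00275). The copies share much of their transcripts: of all stretches of 50 bases in the Ifit3 transcript, 51.2% also occur in another gene, all in Ifit3b, and of those in Ifit3b 44.5% occur in Ifit3. At 100 bases the shares are 31.7% and 27.4%. Reads from shared stretches align to more than 1 place. Reads of that kind were tallied apart from the genes, at 4.89 to 6.1% of all reads per library, and this tally was left out. The counts of both copies may therefore lack reads, and summing the copies would not bring these back. The split of reads between the copies is uncertain as well. With both summed into 1 feature, the log2 fold change was 1.24 (adjusted p from edgeR 2.11e-04).

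Ifit2, known in mice for protecting the brain against neurotropic viruses, had the lowest level per exon length and did not pass the test. It stood at 2.83, 4.01, 3.84, 3.65 and 2.24 CPM in LPS libraries 6 to 10, against 2.29, 2.39, 1.94, 2.28 and 1.76 CPM in untreated libraries 1 to 5. LPS 10 fell inside the untreated range and the other 4 LPS libraries lay above it. The log2 fold change was 0.63 ± 0.19 (SE, edgeR adjusted p = 0.101). Ifit2 was called by DESeq2 (adjusted p = 0.0499), by limma-voom with sample weights (adjusted p = 0.0229) and by edgeR without LPS 10 (log2 fold change 0.75, adjusted p = 0.0371). None of its 50-base stretches occurs in another gene.

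**Figure D2:**
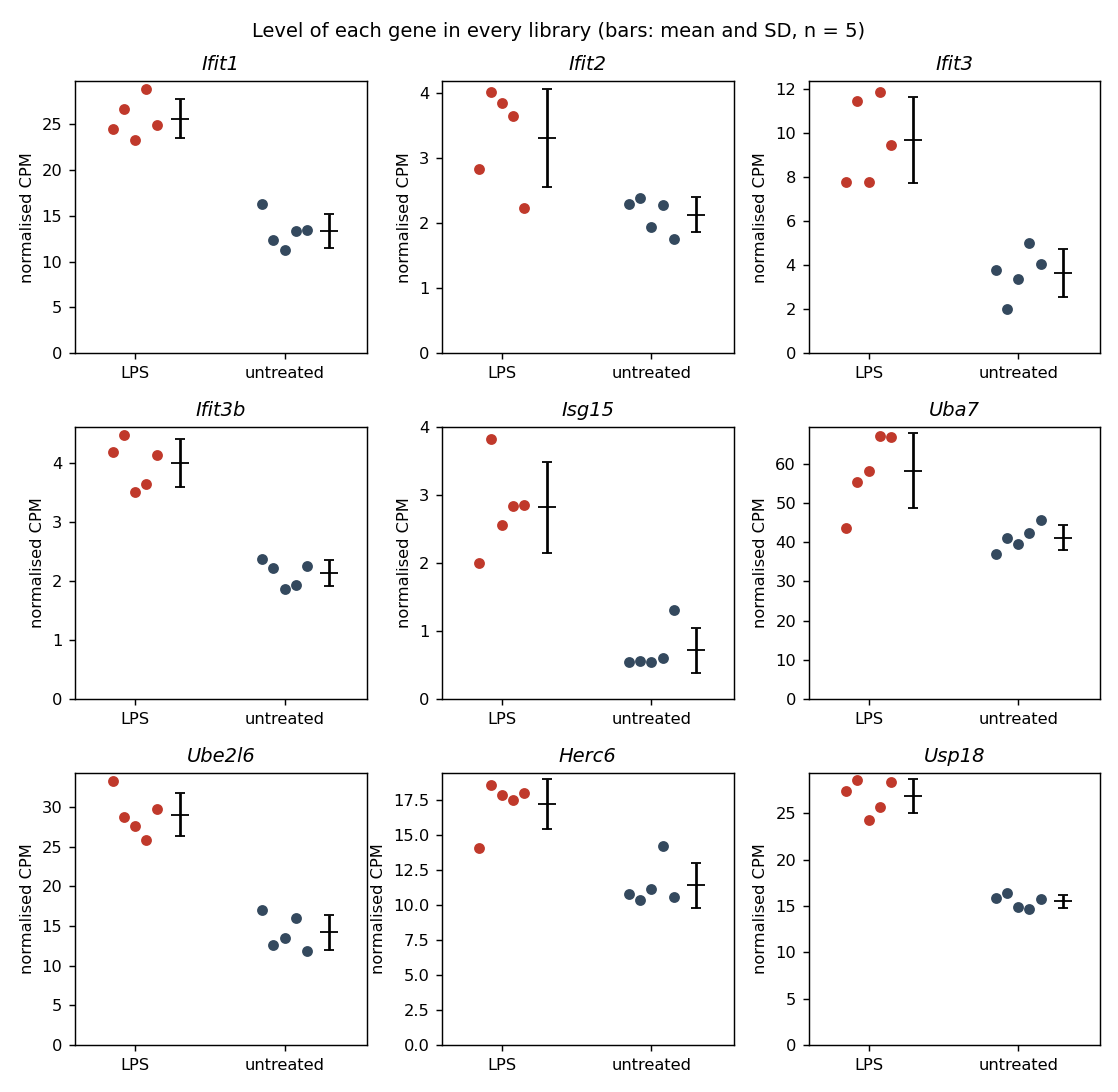
Normalised CPM of each of the 9 genes in every library, LPS on the left and untreated on the right of each panel, with the mean and SD (n = 5) beside the points and each axis starting at 0. The groups overlap in Ifit2, Uba7 and Herc6, while Isg15 is near 0.5 CPM in 4 untreated libraries.

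Isg15, the gene of the modifier itself, had the largest fold change of the 9. It stood at 2.00, 3.83, 2.56, 2.84 and 2.86 CPM in LPS libraries 6 to 10, against 0.544, 0.567, 0.549, 0.602 and 1.31 CPM in untreated libraries 1 to 5. All LPS libraries were above all untreated ones, and untreated 5 was higher than the other untreated libraries by a wide gap. The raw counts behind these levels were few, 323 summed over the LPS and 87 over the untreated libraries. The log2 fold change was 1.98 ± 0.29 (SE, edgeR adjusted p = 0.00121), with a range of 1.83 to 2.31 when single libraries were left out.

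Uba7, the activating enzyme, had the smallest fold change among those called, 1.41. It stood at 43.6, 55.4, 58.1, 67.1 and 66.7 CPM in LPS libraries 6 to 10, against 37.1, 41.1, 39.5, 42.3 and 45.7 CPM in untreated libraries 1 to 5. LPS 6 lay within the untreated range. The log2 fold change was 0.50 ± 0.11 (SE, edgeR adjusted p = 0.0176), and the call was lost without untreated 3 (adjusted p = 0.0526) or without LPS 9 (adjusted p = 0.0557). Gm20661, annotated across the end of Uba7 on the same strand, had 18 counts over the LPS and 8 over the untreated libraries.

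Ube2l6, the conjugating enzyme, rose 2.05-fold. It stood at 33.3, 28.8, 27.6, 25.9 and 29.7 CPM in LPS libraries 6 to 10, against 17.0, 12.6, 13.5, 16.0 and 11.9 CPM in untreated libraries 1 to 5. The groups were separated by a wide gap. The log2 fold change was 1.03 ± 0.11 (edgeR, SE; adjusted p = 1.02e-04).

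Herc6, the ligase, rose 1.51-fold. It stood at 14.1, 18.6, 17.8, 17.5 and 18.0 CPM in LPS libraries 6 to 10, against 10.8, 10.3, 11.1, 14.2 and 10.6 CPM in untreated libraries 1 to 5. LPS 6 and untreated 4 overlapped, and each stood apart from the rest of its group. The log2 fold change was 0.59 ± 0.11 (SE, edgeR adjusted p = 0.00690). In the annotation of release M21, 12.0% of the 50-base stretches of Herc6 also occur in Gm45193, an overlapping transcript with 0 counts in both groups.

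Usp18, which removes ISG15, had the smallest adjusted p of the 9 genes. It stood at 27.4, 28.5, 24.3, 25.7 and 28.4 CPM in LPS libraries 6 to 10, against 15.8, 16.4, 14.9, 14.6 and 15.8 CPM in untreated libraries 1 to 5. Both groups were tight and far apart. The log2 fold change was 0.79 ± 0.07 (SE, edgeR adjusted p = 4.11e-05), and Usp18 ranked 24 of 15942 genes by p. Gm44148, annotated antisense to Usp18, had 165 counts over the LPS and 186 over the untreated libraries, beside 3026 and 1888 for Usp18. Whether counting used strand is not given in the sources used here.

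Levels were compared between genes after division by exon length, as CPM per kb of exon. That length joins the exons of all annotated transcripts of a gene, 6692 bases for Uba7 and 9292 for Herc6. A gene expressed mainly as a shorter transcript is therefore placed too low, and the order between genes is approximate. Sequence shared between genes was kept in that length, although its reads may not be counted. At 50 bases, 51.2% of the stretches of Ifit3 and 45% of those of Ifit3b are shared. The levels per kb of both genes may thus be too low, and their places in the order are uncertain. In LPS libraries Ube2l6 was highest at 14.5 ± 1.38 CPM per kb (SD, n = 5). Ifit1 (9.64 ± 0.82), Usp18 (9.62 ± 0.66) and Uba7 (8.69 ± 1.44) followed at levels per kb whose ranges over libraries overlapped. Next came Ifit3 (5.53 ± 1.12 CPM per kb), which overlapped with Uba7, and Isg15 (3.73 ± 0.88), which overlapped with Ifit3. Ifit3b (2.00 ± 0.20 CPM per kb) and Herc6 (1.85 ± 0.19) overlapped with each other, and Ifit2 was lowest at 0.84 ± 0.19.

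In untreated libraries the upper part of this order held the same 4 genes. Ube2l6 stood at 7.11 ± 1.11, Uba7 at 6.14 ± 0.48, Usp18 at 5.55 ± 0.26 and Ifit1 at 5.02 ± 0.70 CPM per kb, each overlapping with its neighbour. Ifit3, at 2.09 ± 0.62 CPM per kb, reached down into the range of the next genes. Herc6 (1.23 ± 0.17) and Ifit3b (1.06 ± 0.11) had overlapping levels per kb, and Ifit2 was at 0.54 ± 0.07. Isg15 averaged 0.94 ± 0.44 CPM per kb, but 4 of its 5 untreated libraries lay below every untreated library of Herc6 and Ifit3b, and untreated 5, at 1.74, lay above them all. With LPS the lowest Isg15 library, at 2.64 CPM per kb, exceeded the highest LPS value of Ifit3b, 2.24, with no correction for the shared stretches of Ifit3b. The ubiquitin E1 gene Uba1 was far above its ISG15 counterpart in both groups, at 67.6 ± 5.09 CPM per kb in LPS and 64.1 ± 4.65 in untreated libraries.

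**Figure D3:**
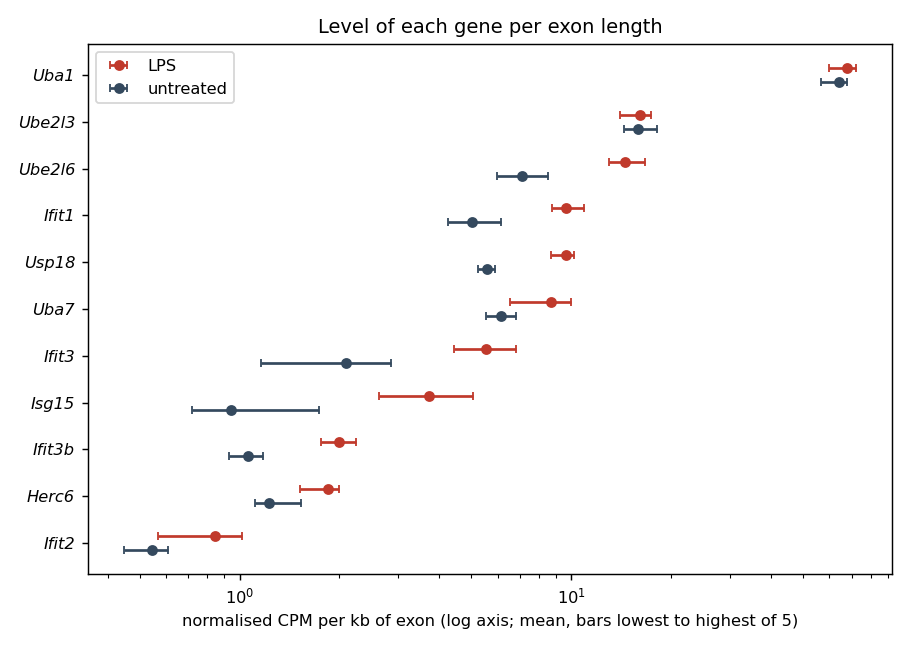
Normalised CPM per kb of exon on a log axis, as the mean with bars from the lowest to the highest of 5 libraries, LPS above untreated for each gene. Isg15 lies above Herc6 and Ifit3b in LPS libraries, and its wide bar in untreated libraries ends at untreated 5, the 1 untreated library above both, while Uba1 and Ube2l3 keep their place. Sequence shared between genes was not corrected for, so Ifit3 and Ifit3b may be placed too low.

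The fold changes of the genes were set against each other by 10 ratios of raw counts within a library (1 added to each count), which do not depend on scaling. Each was compared by a two-sided exact permutation test, with Benjamini-Hochberg adjustment over the 10. The 5 ratios with Isg15 in the denominator share its counts. Of the 10 ratios, 5 passed an adjusted p of 0.05 and 7 had an unadjusted p under 0.05.

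There were 20.5 counts of Uba7 to each of Isg15 in LPS and 57.7 in untreated libraries. The log2 ratio was 4.36 ± 0.29 in LPS and 5.85 ± 0.43 in untreated libraries (SD, n = 5 each; exact p = 0.00794, the smallest this design allows, adjusted p = 0.0265). That is a difference of -1.49, so Isg15 rose more than its E1. The groups did not overlap for this ratio.

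The ratio of Herc6 to Isg15 likewise differed without overlap, at a log2 of 2.61 ± 0.21 in LPS and 4.00 ± 0.59 in untreated libraries (SD, n = 5 each; exact p = 0.00794, adjusted p = 0.0265). Usp18 to Isg15 stood at 3.26 ± 0.31 in LPS and 4.45 ± 0.52 in untreated libraries (SD, n = 5; exact p = 0.0159, adjusted p = 0.0397). Ifit1 to Isg15 stood at 3.19 ± 0.29 in LPS and 4.22 ± 0.55 in untreated libraries (SD, n = 5; exact p = 0.0238, adjusted p = 0.0476). In both, untreated 5 fell inside the LPS range. Relative to the remover Usp18 as well as to the E1 and the E3, Isg15 was thus higher in LPS libraries.

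For Ube2l6 to Isg15 the difference of -0.94 missed the threshold (exact p = 0.0397, adjusted p = 0.0567). Among the IFIT genes no ratio passed. Ifit3 to Ifit1 differed by 0.49 (exact p = 0.0397, adjusted p = 0.0567), Ifit3b to Ifit3 by -0.54 (exact p = 0.0635, adjusted p = 0.0705) and Ifit2 to Ifit1 by -0.34 (exact p = 0.103, adjusted p = 0.103). Ifit3 to Ifit1 passed the exact test without untreated 4 (adjusted p = 0.0198), untreated 5 or LPS 6 (adjusted p = 0.0496 for both), and Ifit3b to Ifit3 without untreated 4 (adjusted p = 0.0265).

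Set against its ubiquitin counterpart, the E2 differed and the E1 missed the threshold. Ube2l6 to Ube2l3 stood at a log2 ratio of -1.69 ± 0.10 in LPS and -2.71 ± 0.17 in untreated libraries (SD, n = 5; exact p = 0.00794, adjusted p = 0.0265). Uba7 to Uba1 stood at -2.50 ± 0.33 in LPS and -2.91 ± 0.21 in untreated libraries (SD, n = 5; exact p = 0.0556, adjusted p = 0.0694). Without LPS 7, LPS 8 or LPS 10, 0 of 10 ratios passed after adjustment, with 5, 7 and 5 at an unadjusted p under 0.05. The smallest adjusted p of the exact test was 0.0529 in each of these. Without untreated 5 or LPS 6, 8 of 10 passed, and without untreated 4, 7 of 10.

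**Figure D4:**
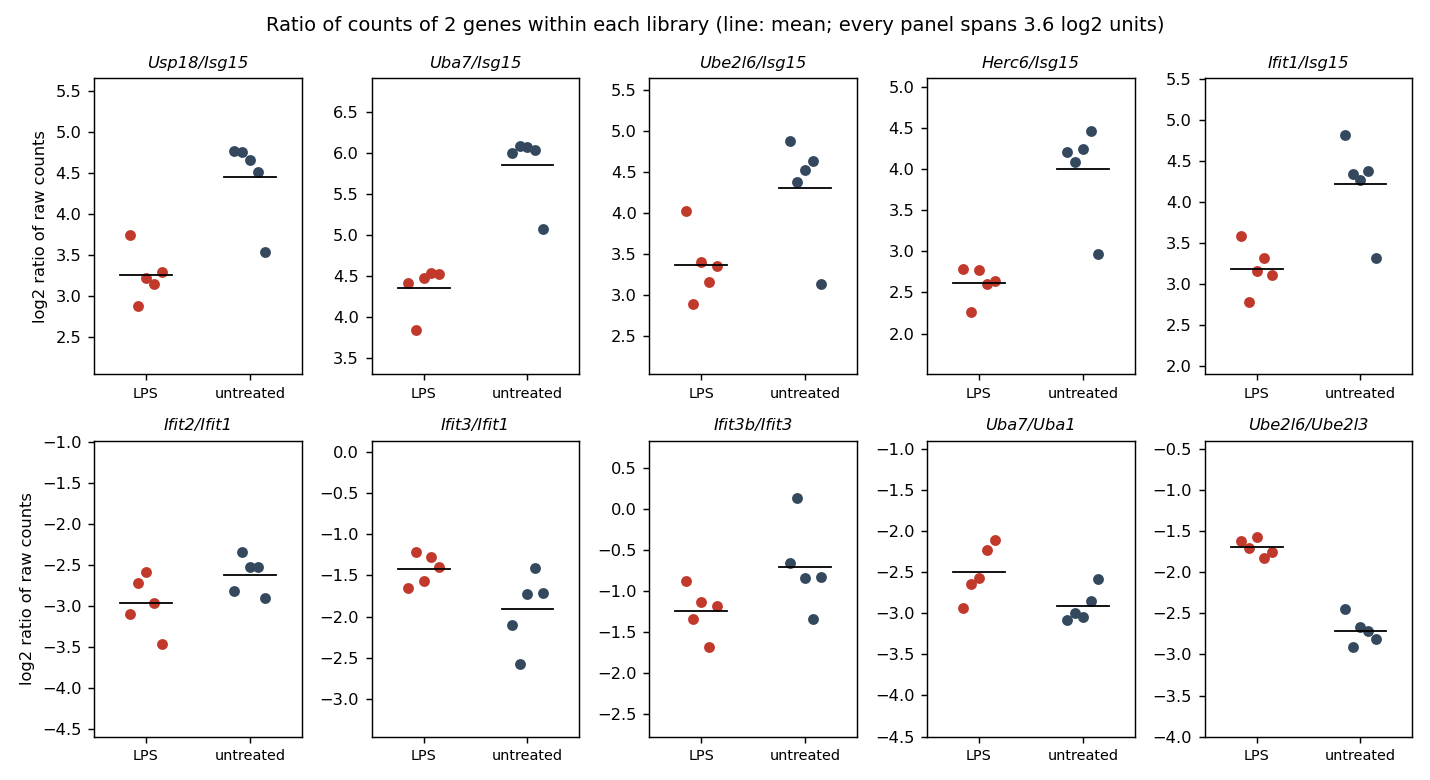
Log2 ratio of the raw counts of 2 genes in each library, LPS on the left and untreated on the right of each panel, with a line at the mean. In the upper row untreated 5 is the lowest untreated point of every ratio to Isg15, and in the lower row Ube2l6/Ube2l3 shows separated groups.

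Other genes around these pathways were taken from lists chosen by role. The ubiquitin and FAT10 counterparts held 17 genes: the E1s Uba1 and Uba6, the E2 Ube2l3, the HERC ligases Herc1 to Herc4, the ubiquitin genes and other ubiquitin-like modifiers. Of 16 tested, none passed in edgeR, DESeq2 or limma-voom, and in edgeR no unadjusted p was under 0.05. Their median log2 fold change was 0.01. The ubiquitin gene Ubb stood at 592 CPM in LPS and 580 CPM in untreated libraries. The FAT10 gene Ubd, of another cytokine-inducible modifier, had 3 counts over the LPS and 0 over the untreated libraries and was not tested.

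Of 10 further genes tied to ISG15 (the ligases Trim25 and Arih1, proteases of the Usp family reported to act on ISG15 or on probes made from it, and the chains Itgal and Itgb2 of LFA-1, a receptor of secreted ISG15), 9 were tested. None was called in edgeR, DESeq2 or limma-voom, and Usp13 alone had an unadjusted p under 0.05 (log2 fold change -0.56, adjusted p = 0.312). The most abundant, Arih1 and Usp5, had log2 fold changes of -0.03 ± 0.13 and 0.02 ± 0.06 (SE). Itgb2 had 39 counts over the LPS and 28 over the untreated libraries.

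Partners of IFIT proteins and the enzymes that methylate the cap did not pass either, 0 of 7 tested in edgeR, DESeq2 and limma-voom with 0 below an unadjusted p of 0.05. Eif3c, a subunit of the initiation factor that IFIT proteins bind, stood at 414 CPM in LPS and 390 CPM in untreated libraries, and Eif3e at 117 and 116 CPM. Of the other genes of the Ifit cluster, Ifit1bl1 was not called by edgeR (log2 fold change -0.55 ± 0.40 SE, adjusted p = 0.586), DESeq2 or limma-voom. Ifit1bl2 had 53 counts over the LPS and 47 over the untreated libraries and was not tested. Ifit1 shares 7.06% of its 50-base stretches with Ifit1bl2.

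**Figure D5:**
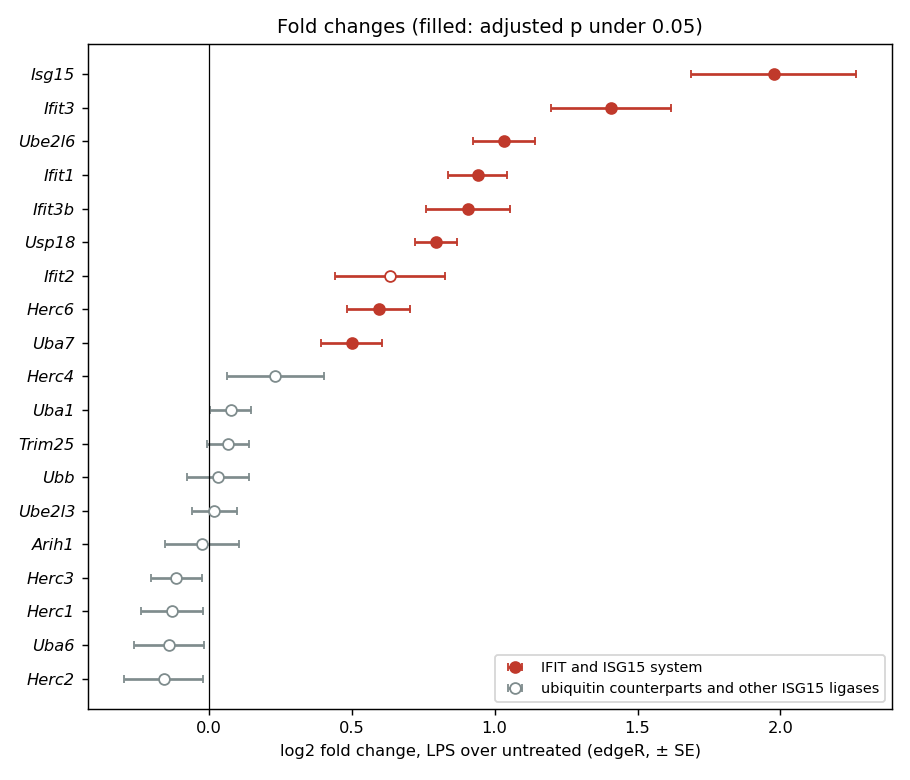
Log2 fold change of LPS over untreated with its SE from edgeR for the 9 genes (red), and for ubiquitin counterparts and other ISG15 ligases (grey), with filled points at an adjusted p under 0.05. The red points run from 0.50 for Uba7 to 1.98 for Isg15, and the grey points lie around 0.

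On the route from the type I interferon receptor to ISGF3, 5 of 10 tested genes rose and none fell, with a median log2 fold change of 0.43. Irf9, the DNA-binding subunit of ISGF3, stood at 47.0 CPM in LPS and 26.5 CPM in untreated libraries (log2 fold change 0.83 ± 0.07 SE). Stat2, its transactivating subunit, stood at 109 and 62.5 CPM (0.80 ± 0.12 SE). The regulators Irf7 and Irf1 rose by 2.01 and 0.73 on the log2 scale and the receptor chain Ifnar2, to which USP18 binds, by 0.47. The call of Ifnar2 was lost when untreated 4 (adjusted p = 0.0572) or LPS 7 (adjusted p = 0.0603) was left out.

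The 4 interferon genes looked at, Ifnb1, Ifna2, Ifna4 and Ifng, had no counts in LPS libraries. Ifna2 had 0 counts over the LPS and 2 over the untreated libraries, and the other 3 had 0 in both groups. A count of 0 allows up to 0.0269 CPM over the LPS and 0.0246 CPM over the untreated libraries (a limit of 3 counts summed over a group, which covers counting error alone).

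For each of the 9 genes, the gene with the most similar profile was taken as the one with the smallest root mean square difference of centred log2 CPM over the 10 libraries, among 12855 other tested genes. Usp18 was nearest to Irf9 (difference 0.0493 log2 units), and Ifit3b was nearest to Usp18 (0.0849). Uba7 was nearest to Fkbp11 (0.0829), a chaperone gene of the endoplasmic reticulum, and Ube2l6 to Serping1 (0.0881), the gene of the complement C1 inhibitor. Herc6 was nearest to the GTPase gene Irgm1 (0.0928), Ifit1 to the class I heavy chain gene H2-D1 (0.114) and Ifit2 to Rnf213 (0.125). The nearest genes were more distant for Ifit3 (B2m, 0.259) and Isg15 (Oasl2, 0.348). These distances describe the 10 libraries, and both groups enter them.

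Total counts assigned to genes ran from 18465188 to 27379892 per library. Markers of beta cells were abundant, with a summed level of 100000 to 132000 CPM in LPS and 116000 to 135000 CPM in untreated libraries. On the mean log2 scale the beta cell list was lower in LPS by a difference of -0.25 (exact permutation test, adjusted p = 0.0291). Of its 6 genes, 1, the glucose transporter gene Slc2a2, was called lower, at 205 CPM in LPS and 372 CPM in untreated libraries (fold change 0.551, edgeR adjusted p = 4.30e-05). RNA is pooled over cells, so fewer cells of a type and less RNA per cell cannot be told apart. Of 11 marker lists, none differed in summed CPM after adjustment over the lists (exact permutation test; 4 at an unadjusted p under 0.05, and 4 after adjustment on the mean log2 scale, those of beta, lymphocyte, plasmacytoid dendritic and pancreatic polypeptide cells). The 12 macrophage markers summed to 36.5 to 46.9 CPM in LPS and 29.2 to 42.1 CPM in untreated libraries (exact p = 0.119). Nearly all of that sum came from the only 2 that could be tested, Cd68, which was called higher (26.8 CPM in LPS and 16.7 CPM in untreated libraries, log2 fold change 0.68), and C1qa (14.7 and 18.7 CPM). Ptprc had 0 counts in all libraries, Adgre1 had 0 over the LPS and 1 over the untreated libraries, and Tyrobp had 1 and 0. The 8 lymphocyte markers summed to 1.28 to 2.86 CPM in LPS and 2.67 to 3.89 CPM in untreated libraries (exact p = 0.0317, adjusted p = 0.131), with Cd3e, Cd3g, Ms4a1 and Nkg7 at 0. The 4 markers of plasmacytoid dendritic cells summed to 67.0 to 80.8 CPM in LPS and 60.6 to 73.4 CPM in untreated libraries (exact p = 0.0476, adjusted p = 0.131). Most of that sum came from Tcf4, which was not called (61 CPM in LPS and 62.7 CPM in untreated libraries, log2 fold change -0.04). Siglech was at 0, and Ccr9 had 0 counts over the LPS and 5 over the untreated libraries. Bst2, itself an interferon-induced gene, was called higher (14.4 CPM in LPS and 4.5 CPM in untreated libraries). Endothelial markers summed to 1.32 to 4.66 CPM in LPS and 1.28 to 25.3 CPM in untreated libraries (exact p = 0.0476, adjusted p = 0.131). Kdr among them was called lower (log2 fold change -3.12, edgeR adjusted p = 0.0473). Markers of pancreatic polypeptide cells summed to 953 to 2150 CPM in LPS and 1580 to 2980 CPM in untreated libraries (exact p = 0.0159, adjusted p = 0.131). Ppy among them was called lower (log2 fold change -0.99, edgeR adjusted p = 0.0473). Alpha cell markers summed to 4130 to 8920 CPM in LPS and 4980 to 14300 CPM in untreated libraries (exact p = 0.206). Delta cell markers summed to 4970 to 9050 and 6070 to 8190 CPM (exact p = 0.595). The part of these cell types in the levels of the 9 genes was not tested.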

How the data were processed

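RNA-seq libraries of sorted beta cells were analysed from raw counts per Ensembl gene, 1 table per library as deposited by the authors. Per the submitters' processing notes, the tools were HTSeq, STAR, SAMtools, Trimmomatic, FastQC and DESeq2 and the genome build was GRCm39. In the sources used here the strand setting, library kit, annotation release and tool versions are not given. Rows that name no gene made up 15.4 to 20.2% of all reads in the tables and were left out. Of 56748 identifiers, 52073 matched a symbol.

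Counts were tested with edgeR 4.0.16 in R 4.3.3 (filterByExpr with a minimum count of 10 and total of 15, TMM, quasi-likelihood F test, no covariate), with Benjamini-Hochberg adjustment over 15942 genes, and calls were made below an adjusted p of 0.05. Alternatives were other scalings and filters, DESeq2 1.42.0, limma-voom (limma 3.58.1) and leaving out each library. Ratios used an added count of 1. All pairs of libraries within a group differed by more than sampling noise (chi-square per gene of at least 6.14). Exon lengths and shared stretches came from GENCODE M21 (GRCm38) and promoters from RefSeq, whose build differs from that of the counts, so only sequences carry coordinates. Figures used matplotlib 3.10.9. Named genes were the 9, the called genes of each list or else its 2 most abundant, 4 interferon genes and the nearest gene by profile, of which some are not reported here. Usp13, Ubd, Itgb2, marker genes and others beyond this rule were named after their values were seen, as were overlapping genes. The genes, lists and rules were chosen with earlier results of these data known.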

Additional observations from a re-analysis of the deposited data

Results flagged for a closer look

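In 70 groups of 5 values, a library far from the rest of its group was looked for, and chance alone gives about 1 in 20. Of 9 such values, 6 came from untreated 5. Its Isg15 level of 1.31 CPM lay apart from 0.602 CPM, the next highest untreated value. The same count shaped its log2 ratios to Isg15, of 3.54 for Usp18, 5.08 for Uba7, 3.14 for Ube2l6 and 2.97 for Herc6, each lower than in the other untreated libraries. Its ductal markers summed to 531 CPM, against 420 CPM in the next library. Without untreated 5, the log2 fold change of Isg15 was 2.31, against 1.98 with it. In LPS 7 the log2 ratio of Uba7 to Isg15 was 3.84, apart from the other LPS libraries. Herc6 stood at 14.1 CPM in LPS 6, low within its group, and at 14.2 CPM in untreated 4, high within its group.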

How the results depend on the processing

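All 9 genes kept a positive log2 fold change under all 17 alternatives run on every gene, and 7 to 9 were called with single libraries left out and 8 or 9 under the other settings. Ifit1, Ifit3, Ifit3b, Isg15, Ube2l6, Herc6 and Usp18 were called in each. The number of genes called overall was 401 to 624 with single libraries left out, 941 with DESeq2 and 994 with limma-voom. Listed pathway genes called were 4 to 6 with single libraries left out, and ratios past the threshold 0 to 8. With both copies summed, the log2 fold change of Ifit3 and Ifit3b was 1.24. On the mean log2 scale 4 marker lists passed (none on summed CPM), and acinar markers changed sign (-0.34, adjusted p = 0.572). The cause was not tested. No paired analysis was possible because the groups share no replicate number in the labels. Isg15 rests on 323 counts over the LPS and 87 over the untreated libraries.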
